A study of Mus musculus with 2 samples.

Results

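The neurotrophic factors Bdnf, Ntf3 and Gdnf and the receptors Ntrk2, Ntrk3, Ret, Gfra1 and Gfra2 were described here from every probe set that the platform annotation gives to exactly 1 of these 8 genes. A probe set is a group of short array probes that together report 1 transcript region. The rule found 29 probe sets among 45101 on the array, for 7 genes of 18193 with such a probe set, and Ntf3, which had no listed probe set, was not analysed here. The tissue was mouse fetal palate of the BALB/c background at E18.5 (embryonic day). The groups were 1 array of palate labelled as homozygous null for Myf5 and for MyoD (gene Myod1), the factors that commit cells to skeletal muscle, and 1 array of wild-type palate. Neither the number of fetuses behind each sample nor the extent of the deleted alleles is stated in the labels. With 1 array per genotype no test was possible, so each difference below is between these 2 arrays and has no p-value.

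Neurotrophic factors are secreted in small amounts by the tissues that nerves grow into, and they keep alive and shape the neurons that reach them. Bdnf binds the receptor tyrosine kinase TrkB (gene Ntrk2), and neurotrophin-3 (gene Ntf3) binds TrkC (gene Ntrk3). Gdnf binds the membrane-anchored co-receptor Gfra1, and its relative neurturin binds Gfra2, and either complex then activates the kinase Ret. In mice, skeletal muscle is a known source of Bdnf, neurotrophin-3 and Gdnf, while sensory, autonomic and motor neurons carry the receptors. The comparison asked whether factors made by target tissue and receptors carried by neurons differed in the same direction in palate labelled as null for the muscle-determining genes.

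The proteins missing by the labelled genotype, Myf5 and MyoD, belong to the basic helix-loop-helix class, which binds the core CANNTG, called an E-box, and MyoD favours the form CAGCTG. The promoter sequences are shown because they let a reader see where such letters lie at these genes. The RefSeq promoter table for GRCm38.p6 held 13 windows for 5 members (Bdnf 7, Ntf3 2, Gdnf 2, Ntrk2 1, Gfra1 1), and Ntrk3, Ret and Gfra2 were not in it. The 250 bases before each listed start were searched, and CANNTG and CAGCTG read the same on both strands. CANNTG, which includes CAGCTG, was found in 12 of 13 member windows, against 66.2% of all 32851 windows, and CAGCTG in 2 of 13, against 13.0% of all windows. These were 1 of the Bdnf windows and the Gfra1 window. A match is a description of the letters, and no binding was measured here. The lines below give those 2 windows and the only Ntrk2 window, 5′ to 3′, with CANNTG in capitals. They are Gfra1 (chr19:58455399-58455648, minus strand), Bdnf (chr2:109694159-109694408, plus strand) and Ntrk2 (chr13:58806319-58806568, plus strand), all in GRCm38.p6.
Gfra1: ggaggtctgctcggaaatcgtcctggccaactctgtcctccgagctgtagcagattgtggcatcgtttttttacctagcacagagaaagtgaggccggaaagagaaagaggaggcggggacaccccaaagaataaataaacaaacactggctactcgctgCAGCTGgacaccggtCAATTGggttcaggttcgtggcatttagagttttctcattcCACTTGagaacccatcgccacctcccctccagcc
Bdnf: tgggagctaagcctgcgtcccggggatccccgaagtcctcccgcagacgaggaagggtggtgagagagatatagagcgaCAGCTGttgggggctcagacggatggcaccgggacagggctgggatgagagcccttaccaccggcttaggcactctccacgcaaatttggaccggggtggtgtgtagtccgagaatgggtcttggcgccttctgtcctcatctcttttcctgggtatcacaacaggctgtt
Ntrk2: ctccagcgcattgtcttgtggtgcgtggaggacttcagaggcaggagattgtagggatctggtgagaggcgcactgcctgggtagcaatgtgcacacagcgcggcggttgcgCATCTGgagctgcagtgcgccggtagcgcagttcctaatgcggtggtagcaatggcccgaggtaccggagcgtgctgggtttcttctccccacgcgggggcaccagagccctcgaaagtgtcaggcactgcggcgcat

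Signals below are the deposited MAS5 signals after 1 scaling factor per array (1.03 for the array labelled double null and 0.974 for wild type). They are intensities in arbitrary units, and a level is not compared between probe sets, except that the probe set of highest mean log2 signal in a gene is called its brightest. Signals under 287, the 40th percentile of all non-control signals, were set to that floor before a log2 ratio was taken. A probe set was called measured if its higher signal was at least 658, the 60th percentile. Ratios have the array labelled double null on top and wild type below. Of the 29 member probe sets 11 were measured (37.9%, against 49.8% of all 34945 probe sets with 1 gene), 11 were under the floor on both arrays and 5 on 1 array. The measured probe sets came from the 5 receptor genes only, since none of the 3 factor probe sets reached the level. Of the 11, 3 (1 each of Ntrk2, Ntrk3 and Gfra1, all higher on the array labelled double null) passed only through that array and none only through wild type. Taking the higher signal of each member probe set, the value nearest above the level was 661 for Ntrk2 probe set 1435305_at on the array labelled double null, and the nearest below was 590 for Ntrk3 probe set 1422329_a_at on the wild-type array.

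Labels and tissue were checked on the same arrays. The brighter Myod1 probe set had 1664 on the array labelled double null and 1937 in wild type, and the single Myf5 probe set had 532 on the array labelled double null and 517 in wild type. These targeted genes did not separate the arrays. It is not known here whether these probe sets lie in removed parts of the genes, so that array is called the null-labelled array below, by its label only. Skeletal muscle genes were lower on that array and still gave signal there, with a sum of 127517, against 236856 in wild type. Whether that remaining signal goes with the labelled genotype was not tested. Of 12 measured palatal mesenchyme genes, 6 were above 0 and 6 below, with a median log2 ratio of -0.03. With the deposited scaling 4 were above 0, and under both scalings on reference genes 2. Among them Msx1, a transcription factor needed for palate growth in mice, was the exception past 2-fold, with 2562 on the null-labelled array and 9511 in wild type (log2 ratio -1.89). The bright collagen gene Col3a1 had 110781 on the null-labelled array and 101385 in wild type. The X-inactivation transcript Xist and the Y-linked gene Eif2s3y also differed. The brightest Xist probe set had 16954 on the null-labelled array and 33799 in wild type, and the brighter Eif2s3y probe set had 2795 on the null-labelled array and 10.8 in wild type. Both genes were named after their values were seen. If the sex of the fetuses differed between the arrays, that cannot be told apart from the labelled genotype in any ratio here.

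The members did not differ as 1 group. Ret was 3.15-fold higher on the null-labelled array, Gfra1 was 1.56-fold higher, and the probe sets of Ntrk2, Ntrk3 and Gfra2 went both ways. Of the 11 measured probe sets 6 were above 0 and 5 below, and the median log2 ratio was 0.22, against 0.07 over all 17406 measured probe sets. That median turned to between -0.14 and -0.03 over 10 measured probe sets under the deposited scaling and both scalings on reference genes, so its sign is not settled. Under the same scalings the median over all measured probe sets lay between -0.13 and -0.01, close to that of the members. At least 2-fold higher were 2 of 11 (1 of Ret and 1 of Ntrk3), where 3.72% of all measured probe sets were. At least 2-fold lower was 1 of 11 (Gfra2), where 4.50% of all measured probe sets were. With a 1.5-fold rule 5 of 11 were higher, beside 13.7% of all measured probe sets, and 2 of 11 lower, beside 12%. Of those 5, 3 (1 each of Ntrk2, Ntrk3 and Gfra1) passed the filter only through the null-labelled array, where they were higher. The Ntrk3 probe set past 2-fold is among them, so the filter itself favours these higher counts. With a 3-fold rule 1 of 11, the Ret probe set, was higher, beside 0.54%, and 0 of 11 lower, beside 1.19%. Counts this small do not set the members apart from the array as a whole. The direction of the 3 differences past 2-fold held under each of the 4 other scalings tried. The deposited scaling and both scalings on reference genes shift ratios by 1 common small amount. They could not reverse differences of that size, so this is little check on direction. The balance over all probe sets past 2-fold moved with the scaling, from 45.2% higher here to between 21.5% and 42.4%.

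**Figure D1:**
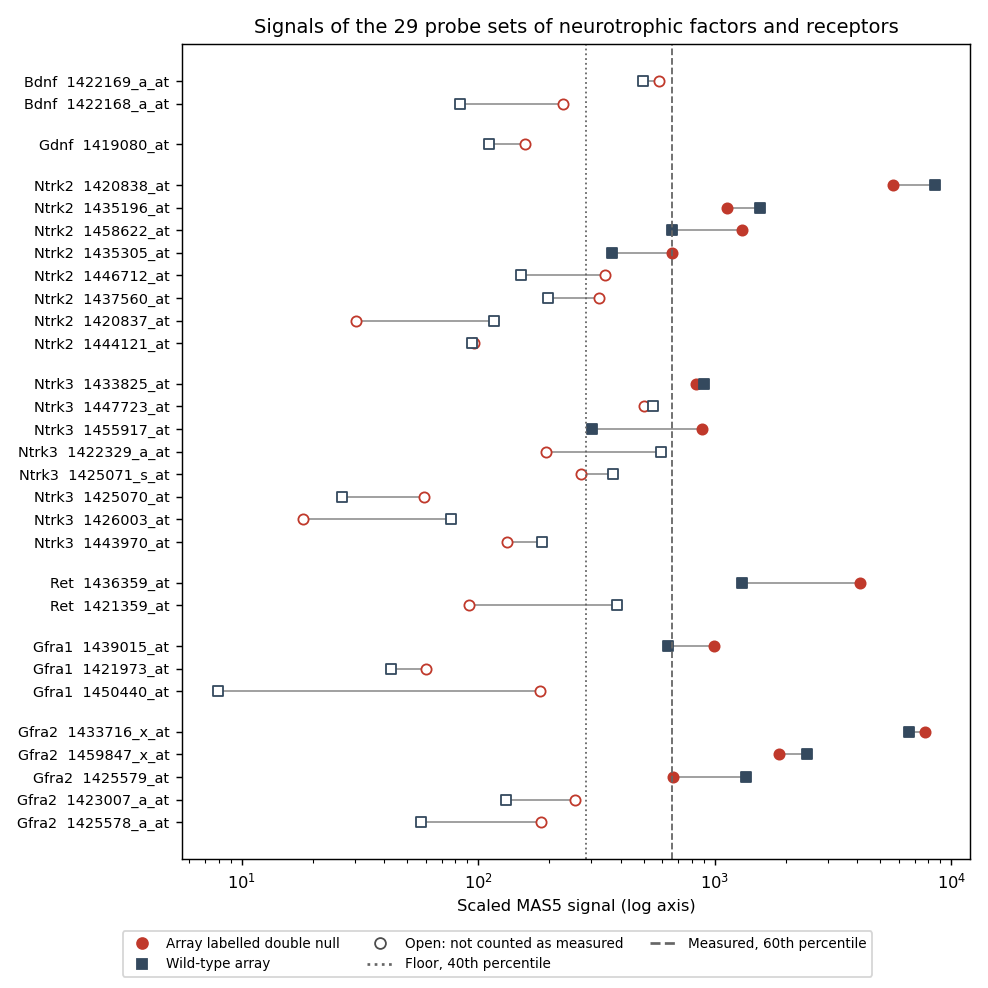
Scaled MAS5 signals (log axis) of the 29 probe sets, with red circles for the null-labelled array and dark squares for wild type, joined by a line. Open symbols mark probe sets not counted as measured, the dotted line is the floor of 287 and the dashed line the level of 658. The Bdnf and Gdnf symbols all lie left of the dashed line.

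The factors were dim on both arrays. Bdnf, the ligand of TrkB, had signals of 581 on the null-labelled array and 497 in wild type in its brighter probe set (1422169_a_at), a log2 ratio of 0.23. These lay at the 57.3rd percentile of all probe sets on the null-labelled array and at the 53.7th in wild type. Its other probe set (1422168_a_at) had 228 on the null-labelled array and 83.3 in wild type, both under the floor, so no fold is given. Both Bdnf probe sets were nominally brighter on the null-labelled array, in a range where the array resolves little.

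Gdnf, the ligand of Gfra1 and Ret, had 158 on the null-labelled array and 111 in wild type. Both values were under the floor, at the 25.6th percentile on the null-labelled array and the 20.6th in wild type. A dim signal does not show that a factor is absent. For Gdnf no difference could be read, since both signals were under the floor. For Bdnf the brighter probe set was over the floor on both arrays, with the log2 ratio of 0.23 given above, but it did not count as measured. Neither factor therefore gives a measured value to set beside its receptor.

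Ret, the signalling kinase shared by the Gdnf family, gave the largest ratio among the measured member probe sets. Probe set 1436359_at had 4116 on the null-labelled array and 1307 in wild type, a log2 ratio of 1.66. Its ratio stood at the 99.6th percentile of all measured probe sets. The signal stood at the 88.6th percentile of the null-labelled array and at the 72.9th percentile of wild type. The pooled SD of log2 ratios among probe sets of the same gene was 0.51 (10187 measured probe sets of 4029 genes), so this ratio exceeds the usual disagreement within a gene. That SD holds the disagreement of probes and isoforms, with no animal-to-animal spread in it.

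The second Ret probe set did not show the same direction. Probe set 1421359_at had 91.8 on the null-labelled array, under the floor, and 386 in wild type, at least 1.35-fold lower, and it did not count as measured. The higher level of Ret therefore rests on 1 probe set. The annotation used here does not say which Ret transcript either probe set reads.

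Gfra1, the co-receptor that presents Gdnf to Ret, had 989 on the null-labelled array and 635 in wild type in its measured probe set (1439015_at), a log2 ratio of 0.64. Its ratio stood at the 88.4th percentile of measured probe sets and was under 2-fold. The other Gfra1 probe sets were under the floor on both arrays, with 60.4 on the null-labelled array and 42.9 in wild type for 1421973_at, and 183 on the null-labelled array and 7.93 in wild type for 1450440_at. The Gfra1 probe set counted as measured only through the null-labelled array, since its wild-type signal was under 658.

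Gfra2, the co-receptor for neurturin, was split. Its brightest probe set (1433716_x_at) had 7737 on the null-labelled array and 6661 in wild type, a log2 ratio of 0.22. The next (1459847_x_at) had 1869 on the null-labelled array and 2446 in wild type, a log2 ratio of -0.39. Both carry the suffix that Affymetrix uses for probes that may bind other transcripts. The measured probe set without that suffix, 1425579_at, had 669 on the null-labelled array and 1350 in wild type. It was 2.02-fold lower, and 4.40% of measured probe sets had a lower ratio. With an offset of 50 in place of the floor no member reached 2-fold lower. Probe sets 1423007_a_at and 1425578_a_at were under the floor on both arrays, although each was nominally brighter on the null-labelled array (256 and 184) than in wild type (131 and 57.1).

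Ntrk2, which encodes TrkB as a full-length kinase and as truncated forms without the kinase, had 4 measured probe sets of 8. Its brightest probe set (1420838_at) had 5667 on the null-labelled array and 8510 in wild type, a log2 ratio of -0.59. Probe set 1435196_at had 1129 on the null-labelled array and 1553 in wild type, a log2 ratio of -0.46. These 2 were lower on the null-labelled array, and the other 2 measured probe sets were higher. Probe set 1458622_at had 1301 on the null-labelled array and 659 in wild type (log2 ratio 0.98), and 1435305_at had 661 on the null-labelled array and 370 in wild type (log2 ratio 0.84). None of the 4 reached 2-fold.

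The disagreement among Ntrk2 probe sets was wide for this array. Their log2 ratios had an SD of 0.83, at the 90.2nd percentile among the 337 genes with as many measured probe sets, whose median SD was 0.39. The mean over the 4 was 0.19, against -0.59 for the brightest probe set, so the direction of Ntrk2 depends on which probe set stands for it. Which TrkB form each probe set reads is not stated in the annotation used here. Of the 4 unmeasured Ntrk2 probe sets, 1446712_at had 345 on the null-labelled array and 152 in wild type, and 1437560_at had 323 on the null-labelled array and 198 in wild type. The remaining pair were under the floor on both arrays, with 30.4 on the null-labelled array and 117 in wild type for 1420837_at, and 96.0 on the null-labelled array and 94.5 in wild type for 1444121_at.

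Ntrk3, which encodes TrkC and likewise has forms with and without a kinase, had 2 measured probe sets of 8. Probe set 1455917_at had 881 on the null-labelled array and 303 in wild type, 2.91-fold higher, a log2 ratio of 1.54 at the 99.4th percentile. Probe set 1433825_at had 833 on the null-labelled array and 901 in wild type, a log2 ratio of -0.11. Of all probe sets whose brighter signal lay between the 60th and 70th percentiles, as its did, 5.62% were at least 2-fold higher, against 2.68% between the 80th and 90th percentiles, where Ret lay. The wild-type value of the Ntrk3 probe set lay just over the floor, and with the floor at the 60th percentile it no longer reached 2-fold. Their SD of 1.17 stood at the 96.6th percentile among the 2642 genes with a like number of measured probe sets, whose median SD was 0.29.

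The unmeasured Ntrk3 probe sets with a signal over the floor went the other way from 1455917_at. Probe set 1422329_a_at had 194 on the null-labelled array and 590 in wild type, at least 2.06-fold lower, and it did not count as measured. Probe set 1447723_at had 501 on the null-labelled array and 547 in wild type, and 1425071_s_at had 273 on the null-labelled array and 373 in wild type. The other 3 were under the floor on both arrays, with signals of at most 132 on the null-labelled array and 186 in wild type. Of the 5 Ntrk3 probe sets with a signal over the floor on at least 1 array, 4 were lower on the null-labelled array and 1 was higher.

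**Figure D2:**
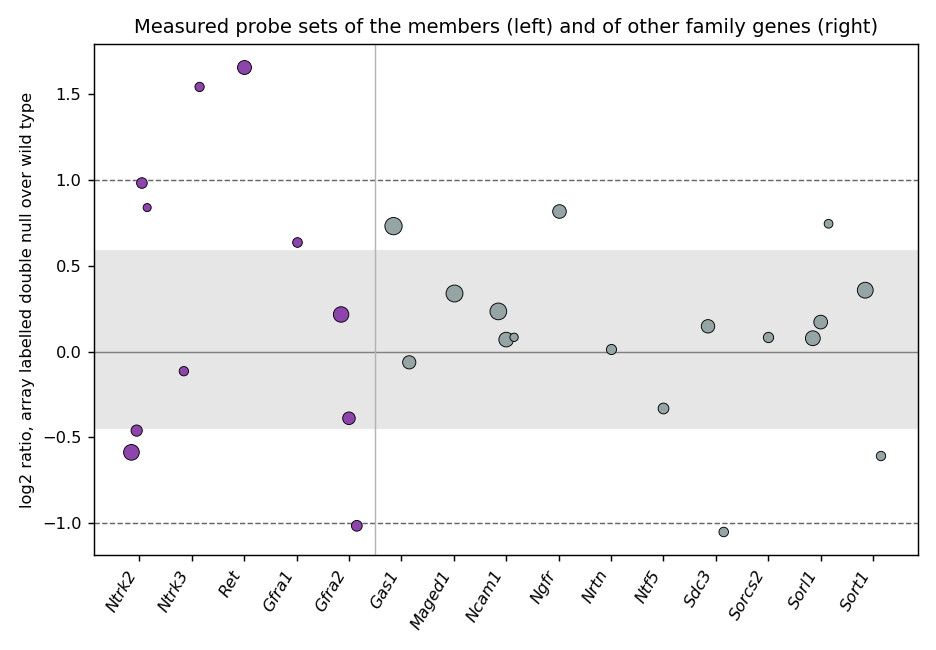
Log2 ratio, null-labelled array over wild type, of each measured probe set of the 5 receptor genes (purple, left) and of other genes of the neurotrophin and Gdnf families (grey, right), with point size growing with the brighter signal. Dashed lines mark 2-fold and the grey band is 1 pooled SD of 0.51 either side of the median of 0.07. The Ret point lies highest, and the Ntrk2, Ntrk3 and Gfra2 points lie on both sides of 0.

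The other ligands of the families that could be measured lay within 2-fold. Ntf5, the neurotrophin that also binds TrkB, had 1073 on the null-labelled array and 1349 in wild type, a log2 ratio of -0.33. Nrtn, neurturin, had 1119 on the null-labelled array and 1109 in wild type, a log2 ratio of 0.01. Artn, artemin, had 242 on the null-labelled array and 68.3 in wild type, and Pspn, persephin, had 161 on the null-labelled array and 216 in wild type, all under the floor. Neither measured ligand reached 2-fold in these arrays.

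The other receptors were mostly a little higher on the null-labelled array. Of 5 measured neurotrophin receptors and partners all 5 were above 0, with a median log2 ratio of 0.34 and none past 2-fold, and of 3 measured Gdnf family partners all 3 were above 0, with a median of 0.23. Over all 11239 measured genes 56.5% were above 0. Under scaling on the median ratio of 16 reference genes 3 of 5 and 3 of 3 were above 0, and under scaling on their median signal 3 of 5 and 2 of 3. Second probe sets of Sort1, the sortilin that binds neurotrophin precursors, and of Sdc3, a syndecan, went the other way, with log2 ratios of -0.61 and -1.05, against 0.36 and 0.15 in the brighter ones. Ngfr, the shared p75 neurotrophin receptor of neurons and glia, had 3629 on the null-labelled array and 2055 in wild type, a log2 ratio of 0.82. Gas1, which also binds Ret and is widely expressed in mesenchyme, had 18011 on the null-labelled array and 10857 in wild type (log2 ratio 0.73), with -0.06 in its other measured probe set. Gfra3, the artemin co-receptor, did not count as measured, with 620 on the null-labelled array and 309 in wild type.

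The related ciliary neurotrophic factor (CNTF) and leukaemia inhibitory factor family gave 5 measured genes, the ligand Ctf1 (cardiotrophin-1) and 4 receptor genes. All 5 were above 0, with a median log2 ratio of 0.41 and none past 2-fold, and 4 of 5 were above 0 under both scalings on reference genes. Cntfr, the CNTF receptor alpha chain, had 892 on the null-labelled array and 458 in wild type (log2 ratio 0.96), and Lifr had 12097 on the null-labelled array and 8338 in wild type (log2 ratio 0.54). Among 12 other target-derived factors and their receptors 4 were above 0 and 8 below, with a median of -0.03. Nrg1, the neuregulin that Schwann cells need, had 772 on the null-labelled array and 366 in wild type, 2.11-fold higher here and under 2-fold with the deposited scaling, both scalings on reference genes, the floor at the 60th percentile and an offset of 50. Efna5, an ephrin that guides axons, had 2949 on the null-labelled array and 6588 in wild type, 2.23-fold lower. Cntfr and Nrg1 passed the filter only through the null-labelled array.

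Genes that act below the receptors stayed mostly within 2-fold. Of 22 measured adaptors and signalling genes 2 were at least 2-fold higher and 1 at least 2-fold lower, and the median log2 ratio was 0.16. At least 2-fold higher were 3.55% of all measured genes and at least 2-fold lower 4.22%. Rit2, a neuronal small GTPase, had 936 on the null-labelled array and 400 in wild type (log2 ratio 1.22), Gab2 had 1.14, and Frs3, an adaptor of Trk receptors, had -1.12. Gab2 had a median of -0.09 in its 2 other measured probe sets. Rit2 passed the filter only through the null-labelled array, and Frs3 only through wild type. With the floor at the 60th percentile 1 of the 22 was at least 2-fold higher and 0 lower. Under both scalings on reference genes 1 was at least 2-fold higher and 1 lower. Of 8 measured genes that process the neurotrophin precursors none passed 2-fold, and the list went both ways. Scg2, a secretogranin of neuroendocrine granules, had 1456 on the null-labelled array and 842 in wild type (log2 ratio 0.79), and Pcsk7, a proprotein convertase, had 1079 on the null-labelled array and 1626 in wild type (log2 ratio -0.59).

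Feedback and response genes gave no common direction. Of 17 measured genes of negative feedback and receptor turnover 8 were above 0 and 9 below, and Spry4, an inhibitor of receptor kinase signalling, was the 1 past 2-fold with 1171 on the null-labelled array and 464 in wild type (log2 ratio 1.34). Of 10 measured activity and Trk response genes 8 were above 0, with a median of 0.39, and 6 were under both scalings on reference genes. Vgf, a secreted neuropeptide precursor first found as a target of nerve growth factor, had 1171 on the null-labelled array and 567 in wild type, 2.06-fold higher here and under 2-fold with the 5 alternatives named for Nrg1. Egr1, an immediate early gene, had 3992 on the null-labelled array and 7898 in wild type, a log2 ratio of -0.98, and it was at least 2-fold lower under the 4 other scalings. Spry4 and Vgf passed the filter only through the null-labelled array. Spry4 was also under 2-fold with the floor at the 60th percentile.

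Pan-neuronal and sensory neuron markers were higher on the null-labelled array, and autonomic and motor neuron markers gave no common direction. All 18 measured neuron genes were above 0 by 1 probe set each, with a median log2 ratio of 0.90. Of these, 8 were at least 2-fold higher, where 3.55% of all measured genes were. Their summed signal over the 18 was 209406 on the null-labelled array and 99255 in wild type. The neuron gene Elavl3, named after its values were seen, had 0.68 in its brightest probe set and -0.15 in its other measured one. Elavl4, an RNA-binding protein of neurons, had 8870 on the null-labelled array and 2637 in wild type. All 12 measured sensory neuron genes were above 0, 6 of them at least 2-fold, with a median of 0.98 and a summed signal over 16 genes of 55988 on the null-labelled array and 31314 in wild type. Pou4f1, a transcription factor of sensory ganglia, was 3.07-fold higher (2558 on the null-labelled array and 832 in wild type), and P2rx3, an ion channel of pain-sensing neurons, 2.74-fold. Tac1, the substance P precursor gene, had 10836 on the null-labelled array and 7127 in wild type. Of the 12, 2 (Trpv1 and Tlx3) passed the filter only through the null-labelled array, and Runx3 and Pvalb, over the floor on both arrays but not measured, had log2 ratios of -0.30 and -0.32. Prph had 0.52 in its brighter probe set and -0.99 in the other. Trpv1, Tlx3, Runx3 and Pvalb were singled out after their values were seen. Ret is known in mice as a receptor of part of the sensory neurons. Its log2 ratio was 1.66, and those of the 12 measured sensory genes, by 1 probe set each, ran between 0.26 and 1.62. Another measured probe set of the sensory gene Scn9a, a sodium channel named after its values were seen, had 2.09. Runx1, the lowest of the 12 and likewise named after its values were seen, ran between -1.31 and 0.97 in its 3 other measured probe sets. Under the 4 other scalings all 18 neuron genes and all 12 sensory neuron genes were above 0, with 6 or 7 and 3 to 6 of them at least 2-fold higher. The part of neuron content in the Ret and Gfra1 values was not tested, and in bulk tissue more cells of a type and more RNA per cell cannot be told apart.

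Other neuron classes were less well covered. Of 15 autonomic neuron genes with a probe set 4 were measured, with a median log2 ratio of 0.06 that turned to between -0.12 and -0.01 under the deposited scaling and both scalings on reference genes, and the noradrenergic enzyme gene Th had 264 on the null-labelled array, under the floor, and 456 in wild type. Nos1, the neuronal nitric oxide synthase, had 1233 on the null-labelled array and 2136 in wild type (log2 ratio -0.79). Of 9 motor neuron genes 2 were measured. Isl2, a homeobox factor of motor neurons, had 1352 on the null-labelled array and 2332 in wild type (log2 ratio -0.79), and Prph, also on the sensory list, had 0.52. Chat, the enzyme that makes acetylcholine, was under the floor on both arrays (281 on the null-labelled array and 214 in wild type). Schwann cell and peripheral glia genes had a median of 0.52, with 10 of 12 above 0, 2 of them at least 2-fold, and a summed signal over 14 genes of 79630 on the null-labelled array and 56743 in wild type. Olfactory neuron genes had a median of 0.78, with 9 of 10 above 0 and a summed signal over 11 genes of 23429 on the null-labelled array and 15949 in wild type. Of these 10 olfactory genes, 3 passed the filter only through the null-labelled array. Of the sensory genes with a probe set, 1 (Pou4f3) was under the floor on both arrays. Th and Pou4f3 were singled out after their values were seen.

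Markers of skeletal muscle, a source of the factors, were lower. All 20 measured muscle genes were below 0, 9 of them at least 2-fold, with a median log2 ratio of -0.96 and a summed signal of 127517 on the null-labelled array and 236856 in wild type. All 20 were below 0 under the 4 other scalings too, 10 to 13 of them at least 2-fold. The deposited scaling and both scalings on reference genes lower all ratios, so under them these genes could not have turned above 0. Of the 20, 4 passed the filter only through wild type. Tnnc2, fast troponin C, had 9600 on the null-labelled array and 31016 in wild type (log2 ratio -1.69). Acta1, skeletal alpha-actin, had 23439 on the null-labelled array and 38268 in wild type. Other cell types moved as well. Oral and skin epithelium genes had a median log2 ratio of -0.68 (9 of 11 below 0, summed signal 141189 on the null-labelled array and 189390 in wild type). Endothelium genes had -0.44 (8 of 10 below 0, 15421 on the null-labelled array and 19906 in wild type). Smooth muscle genes had -0.50 (3 of 4 below 0, 1 at least 2-fold higher). Their summed signal over 8 genes was higher, with 46371 on the null-labelled array and 39956 in wild type. Taste and gland epithelium genes had -0.16 (5 of 7 below 0). Their summed signal over 9 genes was also higher, with 38806 on the null-labelled array and 37509 in wild type. Only through wild type, 3 of 10 endothelium, 2 of 7 taste and gland and 1 of 4 smooth muscle genes passed the filter. In endothelium 1 other gene passed only through the null-labelled array. Krt4, a keratin of oral epithelium, had 4183 on the null-labelled array and 19872 in wild type (log2 ratio -2.25). The part of these cell types in the receptor values was not tested. Bdnf and Gdnf, beside this lower muscle signal, had no measured probe set. Whether factors and receptors differed together could therefore not be answered for any ligand and receptor pair among the members, and only the receptor side gave values.

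**Figure D3:**
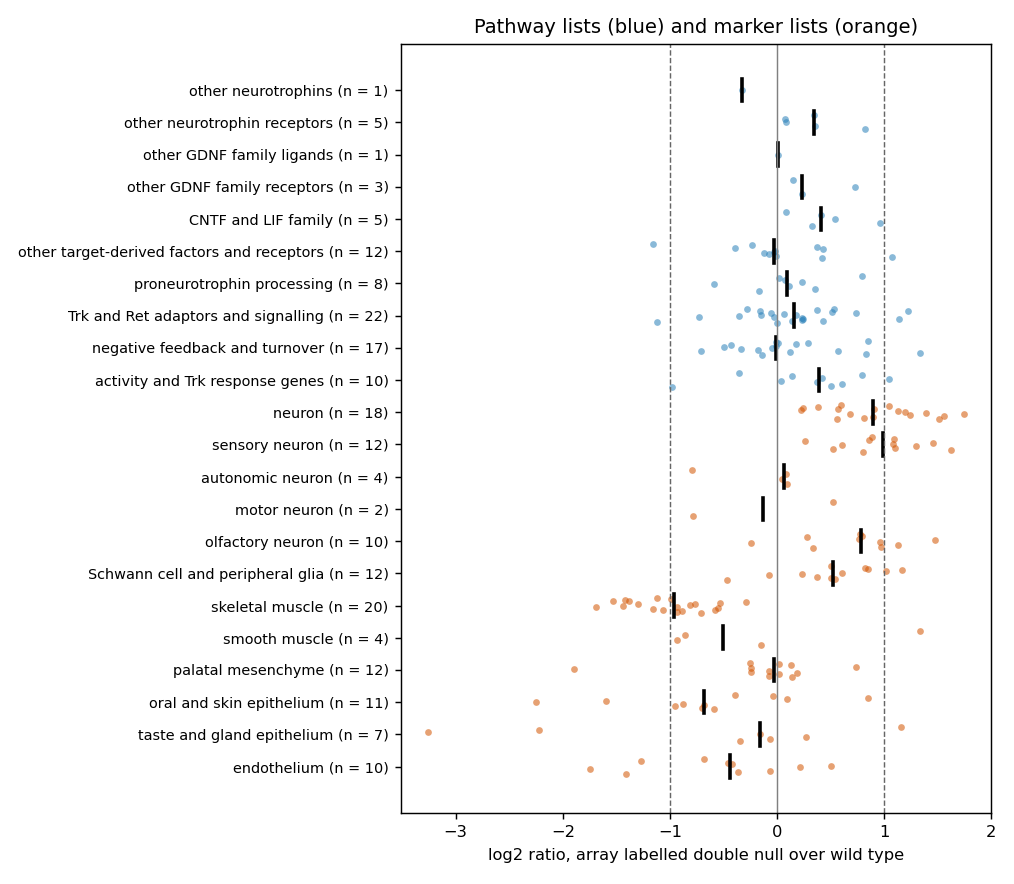
Log2 ratio, null-labelled array over wild type, of each measured gene in the pathway lists (blue points) and cell type marker lists (orange points), with the median of each list as a black bar and n the number of measured genes. Dashed lines mark 2-fold. All neuron and sensory neuron points lie right of 0 and all skeletal muscle points lie left of it, while the Trk and Ret signalling points lie on both sides.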

How the data were processed

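The authors deposited 1 linear signal intensity per probe set and array, made with MAS5 per the submitters' processing notes, from biotin-labelled cRNA of 6 µg total RNA per the labels' protocols. No MAS5 version was found in the labels. For scaling, the arrays were brought to a common median over probe sets in the upper part (50th percentile and over) of both. Signals were then floored at the 40th percentile, and log2 was taken. Names came from the platform annotation (34945 with 1 gene, 932 with several, 9160 with none). A gene in a list was represented by its probe set of highest mean log2 signal. Depth for arrays is not a count, and the number of arrays limits the precision. With 1 array per genotype no test was run. Alternatives varied scaling, floor, filter, fold and probe set choice. The named genes were all members, all other ligands and receptors of the families, up to 4 genes of largest ratio per pathway list plus the one furthest the other way, and from the marker lists some of the brightest and most different genes (at most 4 and 2 a list). Members and lists were chosen with earlier results of these data known. Steps were tested on simulated data. Analyses used Python 3.11.15, numpy 2.4.6, pandas 2.3.3 and matplotlib 3.10.9.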

Additional observations from a re-analysis of the deposited data

How the results depend on the processing

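The counts past 2-fold among members are small, so most choices beyond scaling moved them. The count at least 2-fold higher was 2 of 11 measured probe sets, beside 3.72% of all measured probe sets. It became 1 with the floor at the 60th percentile (2.11% of all) and 1 of 5 with the filter at the 75th percentile (2.99%). With 1 probe set per gene it was 1 of 5 (3.55% of all measured genes). It was 1 with a 3-fold rule (0.54%) and 5 with a 1.5-fold rule (13.7%). The count at least 2-fold lower, 1 of 11, became 0 with an offset of 50 and no floor, 0 with the filter at the 75th percentile, 0 with a 3-fold rule, 0 with 1 probe set per gene, 2 of 29 with no filter and 2 with a 1.5-fold rule. The median log2 ratio of receptor probe sets, 0.22, became -0.39 with the filter at the 75th percentile, which leaves 5 probe sets, and lay between -0.14 and 0.64 in the other alternatives. With the mean over measured probe sets in place of the brightest one, Ntrk2 had 0.19 in place of -0.59, Ntrk3 0.71 in place of -0.11 and Gfra2 -0.40 in place of 0.22, since their probe sets disagree. Ret stayed between 1.47 and 1.66 and Gfra1 between 0.45 and 0.65. In all, 216 of 231 alternative values over 30 results lay within 0.51 of the reported log2 value, or within 1.5 times of the reported count. Many of these alternatives shift all ratios by 1 common amount well under 0.51, so the total says little about how firm a result is. Scaling on the median signal of 16 reference genes was chosen after seeing the data. No factor probe set passed the filter, so a factor median exists only with no filter, where it is 0 because most of those signals lie at the floor. No paired analysis was possible because there was 1 array per genotype. Signal near background limits Bdnf, Gdnf and most Ntrk3 probe sets.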
